A study of Mus musculus with 6 samples.

Results

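Oxidative phosphorylation genes were compared between young and aged mice in the choroid plexus, a vascular tissue in the brain ventricles whose epithelium makes cerebrospinal fluid. The members were taken by gene symbol: every probe set whose symbol begins with Ndufa, Ndufb, Ndufc, Ndufs, Ndufv, Uqcr, Atp5, Cox4, Cox5, Cox6, Cox7 or Cox8, with Sdha, Sdhb, Sdhc, Sdhd and Cyc1 added. A probe set gathers the array probes of 1 gene. The rule took 83 of 25206 probe sets, 1 per gene. They comprised 34 subunits of complex I, 6 assembly factors of complex I, 4 subunits of complex II, 8 of complex III, 18 of complex IV and 10 of complex V, with 3 relatives kept apart because they are not structural subunits of these complexes. Young mice (n = 3) were 2 to 3 months old and aged mice (n = 3) were 20 to 22 months old. Both groups were C57BL/6J, an inbred strain, with no treatment or allele named in the labels, and each array carried total RNA of the whole tissue of a separate mouse. The sources used here give neither sex nor array batch.

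Complexes I to IV pass electrons from NADH and succinate to oxygen in the inner mitochondrial membrane, and complexes I, III and IV pump protons as they do so. Complex V, the ATP synthase, uses the returning protons to make ATP. Most subunits are encoded in the nucleus and imported, while a few catalytic ones are encoded in mitochondrial DNA; the latter were not analysed here. Choroid plexus epithelium is known for dense mitochondria and for ion pumping that consumes ATP.

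Values are deposited log2 expression values, and a difference is aged minus young on that scale. Array medians ran from 4.03 to 4.09 and correlations between arrays from 0.982 to 0.990. As a guide to background, the 95th percentile of the means of 1345 olfactory and vomeronasal receptor probe sets was 3.46, and 79 of the 83 members had a mean above it. The labelled tissue carried its markers: all 12 epithelial markers, such as Ttr, lay above the guide, and their mean ran from 10.9 to 11.2 over the 6 arrays. Markers of some other cell types differed between the groups. The mean of 10 endothelial markers was 5.32 to 5.75 on young and 4.88 to 4.97 on aged arrays, and the mean of 10 macrophage markers was 4.30 to 4.79 on young and 5.06 to 5.86 on aged arrays. Neural markers spread widely among the aged arrays without separating the groups, the mean of 7 neuron markers being 5.56 to 5.97 on young arrays and 7.16, 4.65 and 5.25 on aged replicates 1, 2 and 3. In whole tissue, fewer cells of a type and less RNA per cell cannot be told apart, and the part of these other cells in the members' values was not tested.

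One array stood apart for these genes. On young replicate 1, 44 of 83 members (53.0%) had their lowest value of the 6 arrays, against 17.7% of all probe sets. The median member lay lower there by 0.30 (a difference of -0.30 from the mean of the other young arrays), where the median over all probe sets was 0.01. The mean over the 83 members was 7.44, 7.76 and 7.72 on young replicates 1, 2 and 3 and 7.62, 7.67 and 7.62 on the aged ones. The low young array thus lay outside the range of the other 5 arrays, and the aged arrays lay below both other young arrays. The brightest value on young replicate 1 was 12.1, where it was 13.3 on each of the other arrays. Other genes were low there too: the 12 epithelial markers had a median of -0.20 against the other young arrays, with 6 at their lowest, and the 15 glycolysis genes had -0.23. Differences that this array moves by a large factor are therefore also given without it. For a member that is low on this array, leaving it out must lower the difference. The values without it thus show the dependence on 1 array and are no separate result.

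**Figure D1:**
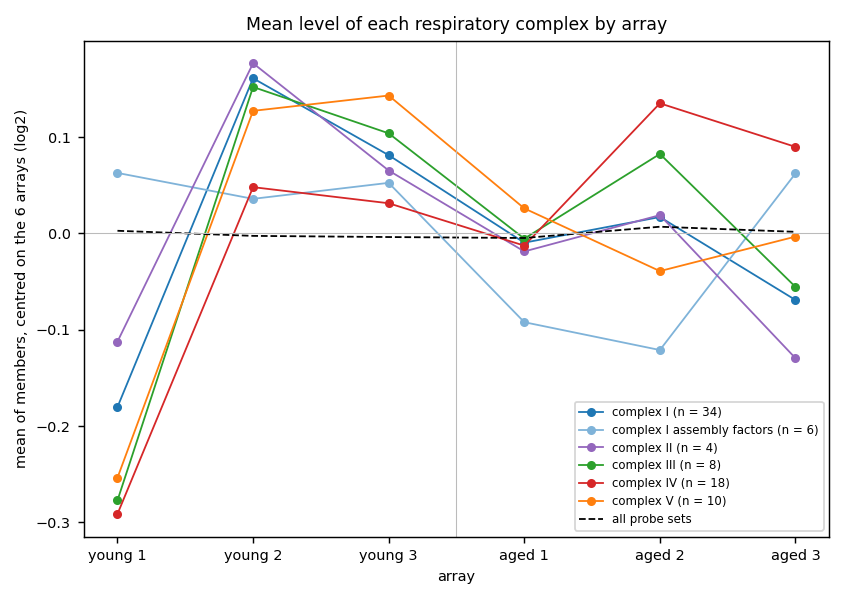
Mean log2 expression of the members of each complex on each of the 6 arrays (points joined by lines; 3 young, 3 aged), centred on its mean over the arrays, with all probe sets as a dashed line. Young replicate 1 is the lowest of the 6 arrays for complexes I, III, IV and V, with means before centring of 7.98, 7.95, 6.39 and 8.06.

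No oxidative phosphorylation gene passed the test of aged against young. With limma and Benjamini-Hochberg adjustment over all 25206 probe sets, 0 of 83 members had an adjusted p under 0.05, against 20 probe sets in all (0.0793%). The lowest adjusted p of a member was 0.439. At an unadjusted p under 0.05, 2 members were higher in aged tissue (2.41%, against 3.82% of all probe sets) and 2 were lower (2.41%, against 3.96%). The 2 higher were Cox8b and Cox6b2, and the 2 lower were Cox5b and Ndufa4l2. All 3 aged values lay above all 3 young values for Cox8b (1.20% of the members, against 6.69% of all probe sets). They lay below for 7 members (8.43%, against 6.93%), namely Cox5b, Ndufa4l2, Ndufaf4, Ndufaf2, Ndufv2, Uqcrc2 and Ndufc2. These shares were near or under those of all probe sets.

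The members' differences were small. Their median was -0.02, with 38 members above 0 and 45 below (45.8% above, against 49.5% of all probe sets, whose median difference was -0.00). A difference of less than 0.5 in size was found for 80 of 83 members (96.4%, against 96.0% of all probe sets), the exceptions being Cox8b, Cox6b2 and Cox5b. For 81 members the 95% interval of the difference lay within 1 log2 unit on either side of 0 (97.6%, against 95.1%). It ran beyond that for Cox8b and Cox6b2. The median SD of a member was 0.21 over the young arrays and 0.11 over the aged ones, where over all probe sets it was 0.15 in both groups.

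**Figure D2:**
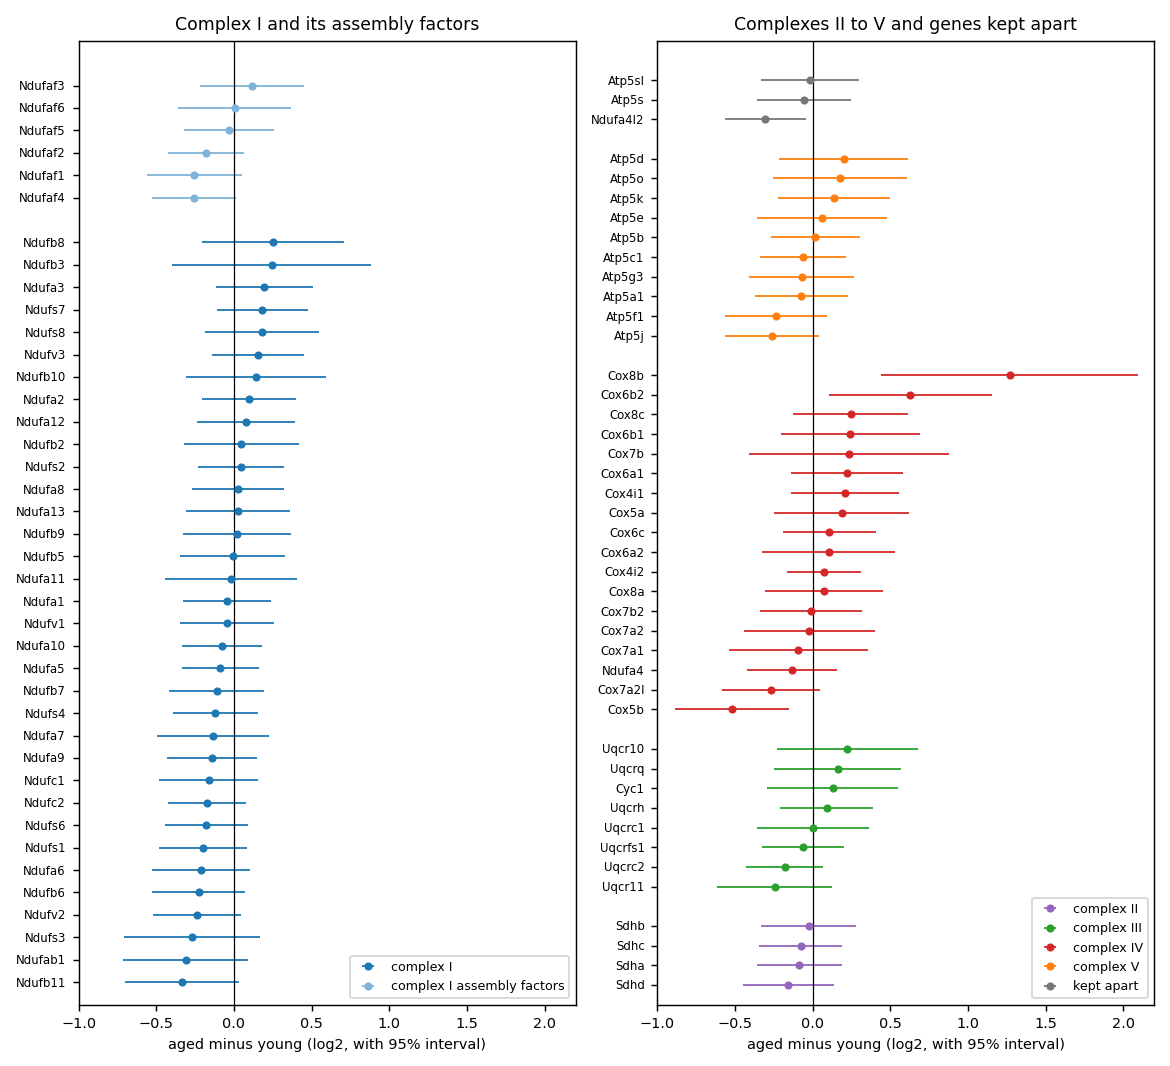
Difference in log2 expression, aged minus young, for each of the 83 members by complex, with its 95% interval from limma. The intervals of Cox8b, Cox6b2, Cox5b and Ndufa4l2 lie on one side of 0 and the others cross it, and the Cox8b difference of 1.27 is the farthest from it.

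Leaving out young replicate 1 moved the balance of directions. That array was singled out because the members were low on it, so a move towards lower differences, and towards more lower members, was built into the choice. The median difference of the members became -0.13, with 21 members above 0 and 62 below (25.3% above, against 50.04% of all probe sets). Among the 1643 probe sets with a mean of 8 or more, 39.6% were then above 0. The call did not move, since 0 members passed. At an unadjusted p under 0.05, 6 members were then lower (7.23%, against 3.19% of all probe sets) and 1 was higher (1.20%, against 3.21%). The 6 were Ndufb11, Ndufs3, Uqcr11, Cox5b, Atp5f1 and Atp5j, and the 1 was Cox8b.

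Complex I takes electrons from NADH, and its core subunits carry the flavin and the iron-sulfur clusters. The 34 subunits had a median difference of -0.05, with 14 above 0 and 20 below, and 0 passed the test. Without young replicate 1 the median was -0.14, with 6 above 0 and 28 below. The 7 core subunits had a median of -0.05, and -0.15 without that array. Ndufv2, an iron-sulfur subunit of the NADH-oxidising arm, had 8.73, 9.07 and 8.78 on the young arrays and 8.64, 8.63 and 8.58 on the aged ones. The aged values lay just below the lowest young value, with a difference of -0.24 (SE 0.12) and a limma adjusted p of 0.698. Among the other core subunits, Ndufs7 (0.18) and Ndufs8 (0.18) had positive differences, which were 0.11 and 0.01 without young replicate 1. Ndufs3 (-0.27) and Ndufs1 (-0.20) had negative ones, which were -0.44 and -0.20 without it.

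The accessory subunits surround the complex I core and are needed for its assembly and stability. The 9 Ndufb subunits, which lie in the membrane arm, had a median of 0.02, and the other 18 accessory subunits had -0.08. Without young replicate 1 these medians were -0.13 and -0.14. Ndufb11 had 6.25, 6.75 and 6.37 on the young arrays and 6.28, 6.11 and 5.96 on the aged ones. Its groups overlapped through young replicate 1, the difference was -0.34 (SE 0.16), or -0.44 without that array, and the limma adjusted p was 0.676. Ndufab1, the mitochondrial acyl carrier protein that also serves fatty acid synthesis, differed from most members in being highest on young replicate 1. It had 7.74, 7.42 and 7.13 on the young arrays and 7.04, 6.995 and 7.33 on the aged ones, with overlap and a difference of -0.31 (SE 0.17), which was -0.16 without that array. Ndufc2 had 9.41, 9.44 and 9.28 on the young arrays and 9.24, 9.11 and 9.25 on the aged ones. Its groups did not overlap, although the difference was only -0.18 (SE 0.11). The largest positive differences were those of Ndufb8 (0.25), Ndufb3 (0.24) and Ndufa3 (0.20), which were 0.04, 0.06 and 0.07 without young replicate 1. The mean of Ndufb3 lay under the background guide.

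The 6 Ndufaf genes encode assembly factors that build complex I and leave it. Their median difference was -0.11, with 2 above 0 and 4 below, and -0.10 without young replicate 1. Their mean was 5.86, 5.84 and 5.85 on the young arrays, and so was not low on young replicate 1. The aged means were 5.71, 5.68 and 5.86. Ndufaf4 had 7.22, 6.93 and 7.01 on the young arrays and 6.83, 6.73 and 6.82 on the aged ones. The aged values were all lower, by -0.26 on average (SE 0.12; -0.17 without young replicate 1), with a limma adjusted p of 0.657. Ndufaf2 had 3.95, 3.80 and 3.84 on the young arrays and 3.61, 3.74 and 3.69 on the aged ones, close to the guide and without overlap. Ndufaf1 differed by -0.25 (SE 0.13) with overlap, and Ndufaf3 (0.12), Ndufaf5 (-0.03) and Ndufaf6 (0.01) lay nearer to 0. Ndufaf3 had its lowest value on young replicate 1. Without that array Ndufaf3, Ndufaf5 and Ndufaf6 changed sign, to -0.03, 0.04 and -0.05.

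Complex II, succinate dehydrogenase, links the citric acid cycle to the chain and holds no mitochondrially encoded subunit. All 4 of its differences were below 0, with a median of -0.08. Sdha, the flavoprotein, had 9.63, 9.89 and 9.63 on the young arrays and 9.61, 9.71 and 9.57 on the aged ones. Sdhb, the iron-sulfur subunit, had 7.78, 8.19 and 8.12 against 8.03, 8.03 and 7.97. For both, the groups overlapped, with differences of -0.09 (SE 0.12) and -0.02 (SE 0.13). Of the membrane anchors, Sdhc had 9.62, 9.84 and 9.85 against 9.68, 9.77 and 9.62, a difference of -0.08 (SE 0.11). Sdhd had 8.32, 8.59 and 8.45 against 8.40, 8.37 and 8.12, a difference of -0.16 (SE 0.13). Each of the 4 differences was smaller than 1.5 times its SE, and without young replicate 1 their median was -0.15.

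Complex III carries electrons from ubiquinol to cytochrome c. Its 8 members had a median difference of 0.05, with 5 above 0 and 3 below. Without young replicate 1 the median was -0.09, with 1 above 0 and 7 below. Cyc1, which holds the cytochrome c1 haem, had 6.87, 7.53 and 7.47 on the young arrays and 7.49, 7.41 and 7.36 on the aged ones. Its difference of 0.13 (SE 0.18) became -0.08 without young replicate 1. Uqcrc2, a core protein, had 9.47, 9.69 and 9.59 against 9.44, 9.37 and 9.40. Its groups did not overlap, the difference was -0.18 (SE 0.11), and the limma adjusted p was 0.748. The small accessory subunits Uqcr10 and Uqcr11 had differences of opposite sign. Uqcr10 had 7.94, 8.68 and 8.53 against 8.52, 8.77 and 8.53, a difference of 0.22 (SE 0.20), while Uqcr11 had 7.48, 7.80 and 8.01 against 7.44, 7.69 and 7.42, a difference of -0.25 (SE 0.16). The difference of Uqcr10 was 0.00 without young replicate 1, and that of Uqcr11 was -0.39.

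Complex IV, cytochrome c oxidase, reduces oxygen, and several of its nuclear subunits come as pairs of a widely expressed and a tissue-restricted isoform. Its 18 members had a median difference of 0.11, with 12 above 0 and 6 below, and 0.03 without young replicate 1. The 9 widely expressed subunits had a median of 0.19, which was 0.03 without that array. The 7 tissue-restricted isoforms had a median of 0.10 in both cases. Of the 4 members past the unadjusted threshold with all arrays, Cox8b, Cox6b2 and Cox5b belong to complex IV. That is 2 of its 18 members higher (11.1%, against 3.82% of all probe sets) and 1 lower (5.56%, against 3.96%). The 2 higher are tissue-restricted isoforms, and the mean of Cox5b lay under the background guide.

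Cox8b, the heart and skeletal muscle isoform of subunit 8, which is also abundant in brown fat, had the largest difference of all members. Its values were 8.03, 9.01 and 9.57 on the young arrays and 9.79, 10.37 and 10.26 on the aged ones. The 3 aged values were all above the highest young value, and the young values were themselves spread over more than 1 log2 unit. The means were 8.87 ± 0.78 (SD, n = 3) and 10.1 ± 0.31 (SD, n = 3), a difference of 1.27 (SE 0.36, 95% interval 0.44 to 2.10) or 2.41-fold. It did not pass limma's test over all probe sets (adjusted p = 0.439, unadjusted p = 0.00767). Without young replicate 1 the difference was 0.85, or 1.80-fold, and leaving out each array in turn gave 0.85 to 1.62. The authors' deposited table gives a fold of 2.23 with a q-value of 0.439 over all probe sets and 0.288 over its filtered subset. Their fold matches the ratio of group means on the linear scale, while the 2.41 is taken from the log2 difference. Their q-value over all probe sets equals the adjusted p here, so it is no separate check.

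Of 10 striated muscle markers, 0 passed the test and 5 lay under the background guide (Ckm, Myh1, Myh4, Myh6 and Actc1). The other 5 lay above it, among them Myh7, which had 4.10 to 5.01 on the young and 4.08 to 4.13 on the aged arrays. Their mean was 3.30 to 3.48 on the young and 3.25 to 3.45 on the aged arrays. The 4 brown fat markers other than Cox8b had means of 3.35 to 3.80 on the young and 3.41 to 3.53 on the aged arrays, and Ucp1 and Elovl3 lay under the guide. Cidea was at 5.90 on young replicate 2, where the other 5 arrays gave 3.83 to 4.06. Ppara had 4.40 to 4.50 on the young and 4.53 to 4.69 on the aged arrays, without overlap. Its difference was 0.16 (SE 0.10; limma adjusted p = 0.768). The part of these cell types in the Cox8b values was not tested further. The other isoforms of subunit 8 differed by less. Cox8a, the widely expressed one, had 10.14, 10.72 and 10.61 against 10.56, 10.66 and 10.46, a difference of 0.07 (SE 0.16), which was -0.10 without young replicate 1. Cox8c, a testis isoform, lay under the guide on every array.

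Cox6b2, the testis isoform of subunit 6b, had 7.52, 7.51 and 8.27 on the young arrays and 8.17, 8.38 and 8.64 on the aged ones. The groups overlapped through young replicate 3, and the other young arrays lay lower than every aged array. The difference was 0.63 (SE 0.23, 95% interval 0.11 to 1.15) or 1.55-fold, with a limma adjusted p of 0.560. It was 0.51 without young replicate 1. Cox6b1, the widely expressed isoform, had 7.83, 8.47 and 8.48 against 8.42, 8.68 and 8.40, a difference of 0.24 (SE 0.19) that became 0.03 without that array.

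Cox5b, a widely expressed zinc-binding subunit, had the lowest difference of all members. It had 3.53, 3.54 and 3.39 on the young arrays and 2.97, 2.67 and 3.26 on the aged ones, without overlap. The difference was -0.52 (SE 0.16), with a limma adjusted p of 0.489. Its mean lay under the background guide, where differences of array values are compressed, so its probes give little information on the level of the transcript. Cox5a, another widely expressed subunit, differed by 0.19 (SE 0.19), which was 0.01 without young replicate 1.

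**Figure D3:**
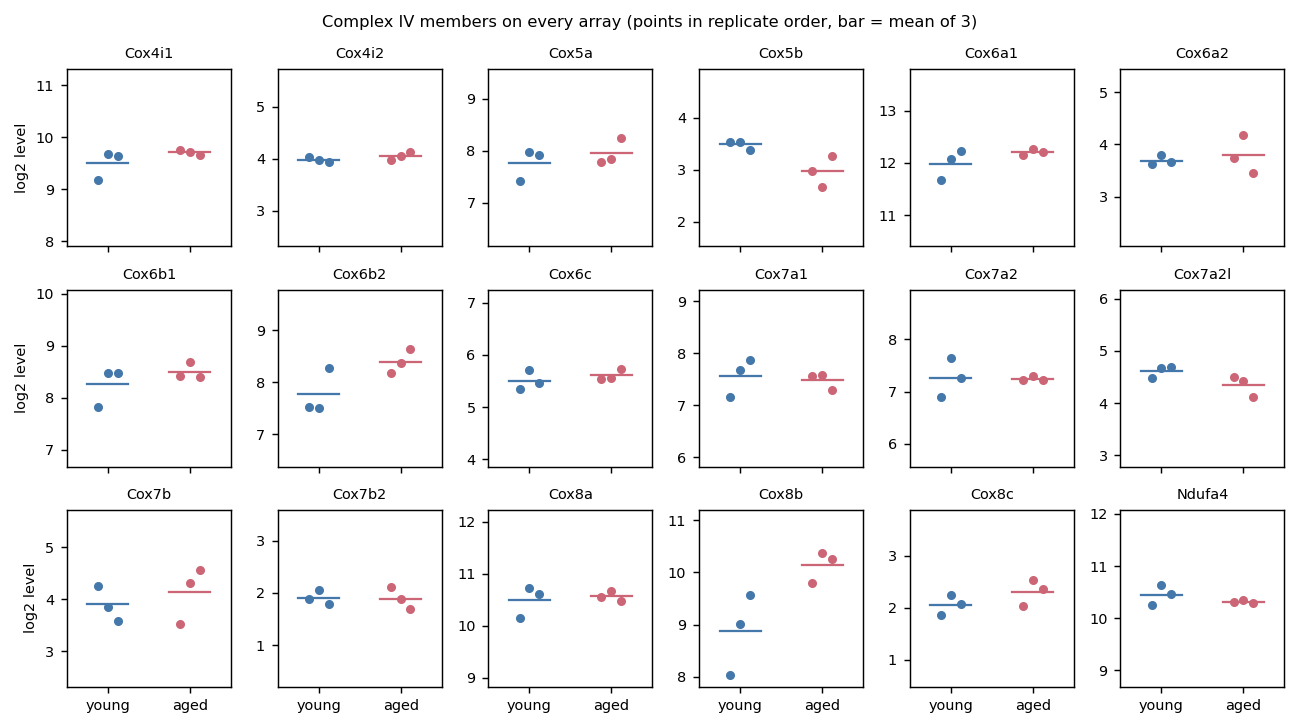
Log2 expression of the complex IV members on each array (points; 3 young, 3 aged), with group means as horizontal lines. The aged values of Cox8b all exceed the young ones, those of Cox6b2 overlap them, and those of Cox5b lie below them at the background level.

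No other isoform of complex IV passed the unadjusted threshold. Cox4i1, the widely expressed isoform of subunit 4, had 9.18, 9.67 and 9.64 against 9.75, 9.72 and 9.65, a difference of 0.21 (SE 0.15), which became 0.05 without young replicate 1. Cox4i2, its lung and hypoxia-linked isoform, had 4.03, 3.98 and 3.93 against 3.98, 4.06 and 4.13, a difference of 0.07 (SE 0.10). For subunit 6a the differences were 0.22 (SE 0.16) for Cox6a1 and 0.10 (SE 0.18) for the muscle isoform Cox6a2, and 0.06 and 0.07 without that array. For subunit 7a they were -0.09 (SE 0.19) for the muscle isoform Cox7a1 and -0.02 (SE 0.18) for Cox7a2, and -0.30 and -0.20 without it. Cox7a2l, a related protein linked to supercomplexes of complexes III and IV, had 4.48, 4.67 and 4.70 against 4.51, 4.41 and 4.12. Its groups overlapped through young replicate 1, with a difference of -0.27 (SE 0.14) and a limma adjusted p of 0.698. Ndufa4, named for complex I but known as a subunit of complex IV, differed by -0.13 (SE 0.12), which was -0.23 without young replicate 1.

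Ndufa4l2, a hypoxia-induced relative of Ndufa4 that is known from pericytes, was kept apart. It had 4.09, 3.81 and 4.02 on the young arrays and 3.65, 3.70 and 3.67 on the aged ones, all lower and close to the background guide. The difference was -0.30 (SE 0.11), and it did not pass limma's test (adjusted p = 0.576). The mean of 8 mural cell markers, which mark pericytes and vascular smooth muscle, was 4.80 to 5.51 on the young and 4.51 to 4.75 on the aged arrays. Their part in the Ndufa4l2 values was not tested. The other genes kept apart, Atp5s and Atp5sl, are listed by RefSeq as Dmac2l and Dmac2, and they differed by -0.06 and -0.02.

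Complex V joins the catalytic F1 head, the membrane part with its rotating ring, and a peripheral stalk that holds them together. Its 10 members had a median difference of -0.02, with 5 above 0 and 5 below. Without young replicate 1 the median was -0.11, with 2 above 0 and 8 below. The 5 subunits of the F1 head had a median of 0.02, and -0.09 without that array. Atp5d, the delta subunit of the head, had 9.82, 10.28 and 10.54 against 10.45, 10.34 and 10.45, a difference of 0.20 (SE 0.18) that was 0.00 without that array. Atp5g3, which encodes the ring subunit, had 9.01, 9.48 and 9.39 against 9.13, 9.19 and 9.34, a difference of -0.07 (SE 0.15), which was -0.21 without it.

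The peripheral stalk was represented by 3 genes with a median of -0.23, and -0.37 without young replicate 1. Atp5j, coupling factor 6, had 4.80, 5.17 and 5.17 on the young arrays and 4.79, 4.80 and 4.76 on the aged ones. Young replicate 1 lay among the aged values while the other young arrays lay above them. The difference was -0.26 (SE 0.13), with a limma adjusted p of 0.692, and -0.39 without that array. Atp5f1, subunit b of the stalk, listed by RefSeq as Atp5pb, showed the same layout. It had 8.55, 9.03 and 8.90 against 8.65, 8.60 and 8.53, a difference of -0.23 (SE 0.14; limma adjusted p = 0.752). The difference became -0.37 without young replicate 1. Both genes were low on that array among the young ones, so leaving it out had to lower their differences. Atp5o, which joins the stalk to the head, had a difference of 0.18 (SE 0.19), which was 0.04 without that array.

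Genes whose current RefSeq symbol would meet the rule, but whose symbol in the deposited table does not, were left outside the members. Those among them that encode subunits or assembly factors lay near 0. Usmg5, listed by RefSeq as Atp5md, differed by -0.01 (SE 0.18), and 2010107E04Rik, listed as Atp5mpl, by 0.05 (SE 0.17). The complex I assembly factors 1810043H04Rik (Ndufaf8) and 2410091C18Rik (Ndufaf7) differed by 0.02 and -0.05.

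Promoters were read for the isoform pairs of complex IV with the largest differences and for 3 further examples. These were Cox5b and Ndufaf4, whose groups did not overlap, and Atp5j. With all arrays Atp5j did not pass the unadjusted threshold, and it did so without young replicate 1, on which it was low. These promoters were chosen after the values were seen, and other members of those kinds are not shown. Each line gives the 150 bases before the transcription start, 5′ to 3′ on the gene's strand, from RefSeq on mouse build GRCm38.p6. Capitals mark matches to the motifs named in the next paragraph.
Cox8b, chr7:140900447-140900596, minus strand: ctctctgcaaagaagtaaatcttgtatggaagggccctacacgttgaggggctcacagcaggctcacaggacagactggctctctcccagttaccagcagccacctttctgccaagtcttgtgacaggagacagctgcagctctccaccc
Cox8a, chr19:7217617-7217766, minus strand: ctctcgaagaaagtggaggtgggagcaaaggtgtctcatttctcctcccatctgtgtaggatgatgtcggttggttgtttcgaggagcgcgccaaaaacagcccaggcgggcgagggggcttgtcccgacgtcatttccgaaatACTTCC
Cox6b2, chr7:4753095-4753244, minus strand: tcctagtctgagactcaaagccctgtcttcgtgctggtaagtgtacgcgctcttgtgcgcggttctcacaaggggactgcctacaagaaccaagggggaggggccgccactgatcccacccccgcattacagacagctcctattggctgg
Cox6b1, chr7:30626115-30626264, minus strand: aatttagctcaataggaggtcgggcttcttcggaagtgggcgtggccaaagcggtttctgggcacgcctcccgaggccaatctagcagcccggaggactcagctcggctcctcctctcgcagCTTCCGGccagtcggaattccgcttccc
Cox5b, chr1:36691337-36691486, plus strand: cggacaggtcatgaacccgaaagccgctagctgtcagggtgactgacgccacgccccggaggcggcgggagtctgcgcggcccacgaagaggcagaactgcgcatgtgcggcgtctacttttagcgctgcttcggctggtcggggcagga
Ndufaf4, chr4:24897933-24898082, plus strand: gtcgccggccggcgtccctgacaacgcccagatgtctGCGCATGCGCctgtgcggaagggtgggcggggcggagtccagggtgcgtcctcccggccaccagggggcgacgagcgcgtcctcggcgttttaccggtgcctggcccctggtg
Atp5j, chr16:84834977-84835126, minus strand: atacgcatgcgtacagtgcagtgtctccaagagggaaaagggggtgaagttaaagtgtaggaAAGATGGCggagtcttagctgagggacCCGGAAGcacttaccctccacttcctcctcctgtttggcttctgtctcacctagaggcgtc

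The motifs searched were those of regulators known for nuclear genes of the respiratory chain: GCGCATGC for NRF1, CCGGAAG and its longer form CCGGAAGT for GABP and other ETS factors, and AAGATGGC for YY1, each on both strands. Windows ran from 250 bases before to 50 bases after a start, and 67 of the 83 members had one. The NRF1 motif stood in 10 of the 67 members (14.9%), against 3.05% of all 27025 genes in the table. The YY1 motif stood in 10 members (14.9%, against 3.19%), and in 8 of these it lay between 23 and 39 bases after the start. The shorter ETS motif stood in 15 members (22.4%, against 9.93%), and the longer one in 4 of them (5.97%, against 4.31%). In the bases printed, Cox8b, Cox6b2 and Cox5b held no match. Cox8a and Cox6b1 each held an ETS match, that of Cox8a being the longer form and running past the printed end. The Ndufaf4 promoter held a pair of overlapping NRF1 matches on opposite strands, and the Atp5j promoter, shown for 1 of its listed starts, held a YY1 and an ETS match. For genes with more than 1 listed start, starts without a match in the printed bases were not shown. The start shown for Atp5j was thus chosen for holding a match. These matches describe letters in a window and are not evidence of binding, and the motif letters were chosen with the members' promoters in view.

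The genes that serve the chain without being members gave the same count of 0 past the adjusted threshold. The 18 electron carrier and quinone genes had a median difference of -0.05. At an unadjusted p under 0.05, 2 of them were lower (11.1%, against 3.96% of all probe sets), namely Coq10b (-0.40, SE 0.15), which binds ubiquinone, and Etfdh (-0.26, SE 0.10), which feeds electrons from fatty acid oxidation to ubiquinone. The 8 complex I assembly factors outside the rule had a median of -0.04, with 1 gene past the unadjusted threshold (12.5%, against 3.82% of all probe sets), Acad9, higher by 0.37 (SE 0.13; limma adjusted p = 0.543). The 4 complex II, 6 complex III and 5 complex V assembly genes had medians of -0.05, -0.07 and -0.10, with no gene past the unadjusted threshold, and -0.14, -0.13 and -0.19 without young replicate 1. The 22 complex IV assembly genes had a median of -0.11, with 7 above 0 and 15 below. The 1 past the unadjusted threshold (4.55%, against 3.96%), 2310016M24Rik, listed by RefSeq as Cox14, which assists synthesis of the mitochondrially encoded COX1, differed by -0.41 (SE 0.12; limma adjusted p = 0.457).

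Regulators of mitochondrial biogenesis had a median of -0.08 over 19 genes, with 0 past the unadjusted threshold. Ppargc1a, the coactivator that drives the programme, had means of 8.97 and 8.96, and Nrf1 differed by 0.12. Of 13 citric acid cycle genes, 2 were above 0 and 11 below, with a median of -0.08, and Suclg2, a succinyl-CoA ligase subunit, was the 1 gene past the unadjusted threshold (7.69%, against 3.96%), with a difference of -0.29 (SE 0.11). A list of 14 genes, mostly of the outer and inner membrane, was taken as a gauge of mitochondrial content and had a median of -0.07. Whether these transcripts follow mitochondrial content was not tested. The 3 of them past the unadjusted threshold (21.4%, against 3.96% of all probe sets) were the outer membrane channels Vdac2 (-0.44, SE 0.13) and Vdac3 (-0.32, SE 0.10) and the matrix chaperone Hspd1 (-0.32, SE 0.11). Glycolysis genes had a median of 0.06 over 15 genes, with 1 past the unadjusted threshold (6.67%, against 3.82%). This was Hk2, a hexokinase, higher by 0.67 (SE 0.25; limma adjusted p = 0.576). Its values were 3.72, 3.79 and 3.73 on the young arrays, close to the background guide, and 3.90, 4.35 and 5.01 on the aged ones. The 5 uncoupling protein genes had a median of 0.10. Without young replicate 1 the medians were -0.04 for biogenesis regulators, -0.14 for the citric acid cycle, -0.13 for the list of 14 genes, 0.02 for glycolysis and 0.14 for uncoupling proteins.

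**Figure D4:**
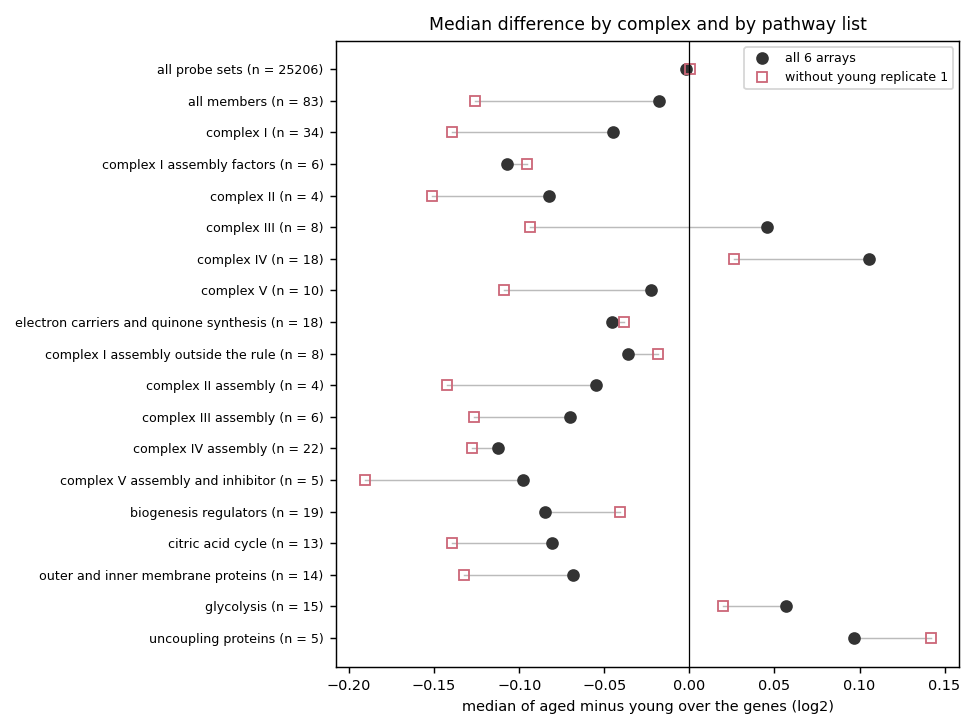
Median difference in log2 expression, aged minus young, of each complex and pathway list with all 6 arrays and without young replicate 1. Complexes I, III and V move to -0.14, -0.09 and -0.11, and complex IV to 0.03.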

How the data were processed

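Choroid plexus RNA of 3 young and 3 aged mice was hybridised to expression arrays. The authors deposited log2 expression values made with RMA (background correction, quantile normalization and a summary per probe set), per the submitters' processing notes, with Brainarray probe sets of 1 Entrez gene each, per the file headers. The array model is not given in the sources used here. A signed fold change of aged against young, a t statistic as score, q-values and p-values stand beside them in the authors' deposited table, and the submitters' processing notes name limma 3.14.4. The p and q-values and folds were only copied for comparison, and 0 per-sample columns went unused.

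All 25206 probe sets were tested here by lmFit and eBayes of limma 3.58.1 under R 4.3.3 without covariate or filter, with Benjamini-Hochberg adjustment over the table and a threshold of 0.05. SE is limma's moderated standard error. The fit was tested on simulated data. The members, gene lists and rule for named genes were chosen with earlier results of these data known. By that rule 34 members were named: per complex, up to 3 by smallest p and up to 2 per direction without overlap, plus fixed isoform pairs, complex II and Cyc1. Besides these members, up to 2 genes per pathway list were taken. Other members given values were chosen after these were seen, and not every list gene so taken is printed. All 83 members matched the RefSeq gene table by identifier, 3 under another current symbol. Alternatives were the rounded value table, median centring, repeated quantile normalization, a robust prior with a variance trend, array weights, removal of dim probe sets, a replicate block, Ndufa4 grouped with complex I, structural subunits alone, and leaving out each array. Differences of array values can be compressed for very dim and very bright probe sets, and the number of arrays limits precision. Several subunits have processed pseudogenes, and cross-hybridisation to them was not tested.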

Additional observations from a re-analysis of the deposited data

How the results depend on the processing

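The number of members past the adjusted threshold was 0 with limma under every alternative run, where an unadjusted threshold of 0.05 took 2 higher and 2 lower members with all arrays. The count of higher members at that unadjusted threshold was 1 to 4 when each array was left out in turn. The count of lower members was 2 to 6 under the same exclusions. It was 0 among probe sets above the array median on at least 3 arrays, 1 among those above the background guide and 1 with the replicate block, where fewer genes or fewer degrees of freedom remained. The labels name separate mice. Same-numbered arrays deviated together with correlations of -0.02, 0.15 and -0.05, and differently numbered ones with -0.14 to 0.15. With 3 arrays a group, these values cannot decide whether same-numbered arrays shared a batch. The replicate block changed no other call. Directions reversed for many members when young replicate 1 was left out, where 38 were above 0 with all arrays and 21 without it. Ndufb10, for instance, had 0.14 with all arrays and -0.08 without it, and Atp5k had 0.14 and -0.02. Among the genes taken by the naming rule, directions reversed for the following. The difference of Cox7a2 was 0.00164 with quantile normalization once more. Leaving out each array in turn gave -0.20 to 0.17 for Cox7a2, -0.21 to 0.020 for Atp5g3, -0.093 to 0.28 for Cox6a2, -0.30 to 0.059 for Cox7a1, -0.10 to 0.19 for Cox8a, -0.083 to 0.25 for Cyc1, -0.15 to 0.056 for Sdhb and -0.17 to 0.058 for 1110058L19Rik, a complex II assembly factor listed by RefSeq as Sdhaf4. The cause was not tested. With 3 arrays a group, the share of members higher in aged tissue ranged from 25.3% without young replicate 1 to 56.6% without young replicate 2.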

Other observations

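The low values on young replicate 1 were larger for bright oxidative phosphorylation genes than for bright genes in general. Among the 44 members with a mean of 8 or more, the median difference of young replicate 1 from the mean of the other young arrays was -0.36, and 28 of them (63.6%) had their lowest value there. Among all 1643 probe sets with such a mean, the median was -0.04 and 28.5% had their lowest value there. By complex, the median was -0.30 for complex I, 0.13 for its assembly factors, -0.21 for complex II, -0.41 for complex III, -0.33 for complex IV and -0.41 for complex V.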
